A study of Mus musculus with 60 samples.

Results

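Macrophages labelled ATF3-/- and macrophages labelled WT were compared after both had received high-density lipoprotein (HDL) and no other ligand. The comparison was chosen by the labels alone, as the 3 arrays with genotype ATF3-/- and condition HDL against the 3 arrays with genotype WT and condition HDL. These 6 arrays are part of an experiment of 36 arrays with both genotypes, and of a series of 60 arrays. Total RNA was labelled with biotin and measured on Illumina mouse BeadChips, glass slides that carry 6 arrays each and report a fluorescence signal for each gene probe.

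The cells were bone marrow-derived macrophages, which are grown from bone marrow with the growth factor M-CSF, here for 6 d at 40 ng/ml. In the groups labelled ATF3-/- HDL and WT HDL, HDL was given at 2 mg/ml, with a stated stimulation period of 10 h. The groups labelled ATF3-/- control and WT control, also of 3 arrays each, received no HDL. The other 24 arrays held both genotypes under CpG (100 nM, a ligand of TLR9), P3C (50 ng/ml, a ligand of TLR2), HDL with CpG and HDL with P3C, where the ligand was present for 4 h after 6 h of HDL. All arrays carry the strain label C57BL/6. The growth protocol describes marrow of wild-type mice aged 6 to 8 weeks. The source of the marrow labelled ATF3-/- is not described beyond genotype and strain, and whether the mutation is a full deletion is not given in the sources used here. Nothing in the labels ties the 3 arrays of a group to separate mice or dishes. The p-values therefore measure a spread between arrays within groups, which may be technical. That spread was pooled over the 12 groups of the 36 arrays, so for a given gene the HDL arrays may spread more or less than the standard error implies.

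HDL is the plasma lipoprotein that accepts cholesterol from macrophages and carries it to the liver, and it is known to dampen inflammatory responses of macrophages. ATF3 is a stress-induced transcription factor of the basic leucine zipper family that binds cAMP response elements and related AP-1 sites and represses many inflammatory genes. Type I interferons act through a complex of transcription factors that binds interferon-stimulated response elements, and IRF7 is both a product and an amplifier of that pathway. The question behind the comparison is how far macrophages with and without ATF3 differ once HDL is present.

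Signals are given as normalised log2 values, so that a difference of 1 is a 2-fold difference, and differences are ATF3-/- minus WT with the standard error of the fit. All 9213 detected genes were tested together in limma, and a gene passed where its p, adjusted by Benjamini and Hochberg's method, was below 0.05. Probes detected per array numbered 13081 to 13838 in the group labelled ATF3-/- HDL and 13812 to 14785 in the group labelled WT HDL. Correlations between arrays of a group were 0.990 to 0.992 in either HDL group, and those across the groups were 0.976 to 0.981. The arrays labelled ATF3-/- HDL lay on 2 chips and those labelled WT HDL on 2 others, so 0 chips held both and no value within a chip can be given for HDL. A fit that gives each chip its own level links the groups through the other arrays on those chips, and is called the chip fit below.

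Atf3 itself had normalised log2 signals of 13.07, 13.30 and 13.30 in the arrays labelled ATF3-/- HDL, against 11.57, 11.95 and 12.06 in those labelled WT HDL. All 3 arrays labelled ATF3-/- were above all 3 labelled WT, with a log2 difference of 1.37 ± 0.17, adjusted p = 6.71e-07. In control cells the signals were 12.75, 12.91 and 12.37 in the arrays labelled ATF3-/- control, against 11.12, 11.28 and 11.20 in those labelled WT control, again without overlap (log2 difference 1.47 ± 0.17, adjusted p = 9.87e-08). The Atf3 signal was higher with HDL than without it in either genotype, by 0.55 in the cells labelled ATF3-/- (adjusted p = 0.0159) and by 0.66 in those labelled WT (adjusted p = 0.00549). Atf3 has 1 probe here, and neither its place in the transcript nor the part of the gene that is altered is given, so this signal does not check the genotype labels, and every direction below is one between labels. Of the 80 genes that flank Atf3 in the order of the RefSeq gene table, 40 on either side, 29 were on the array and 13 were tested. Flvcr1, a haem exporter, fell by 0.69 and Ints7, an Integrator subunit, by 0.60 on the log2 scale (adjusted p = 0.00198 and 0.00341). Smyd2, a lysine methyltransferase, was also called lower (-0.49 ± 0.15, adjusted p = 0.0327), but lost the call without any 1 of 5 arrays (ATF3-/- HDL 1, 2 or 3, or WT HDL 2 or 3), with adjusted p from 0.0709 to 0.145, and in the chip fit (adjusted p = 0.104). Under median scaling 0 of the 3 were called.

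The cells carried markers of macrophages in both groups: all 13 macrophage markers on the array were detected on all 6 arrays, with summed signals of 84789 to 92539 in the group labelled ATF3-/- HDL and 82359 to 85355 in the group labelled WT HDL. Of these, 4 were called higher in ATF3-/-, namely Aif1, C1qa, Fcgr1 and Mrc1, and 9 did not pass. Among 10 markers of T and NK cells, 12 of dendritic cells and 7 of erythroid cells, at most 1 of each list was detected in either group. The neutrophil granule genes Elane, Mpo and Camp and the B cell genes Pax5 and Ms4a1 were detected in neither group. Calls on these lists numbered 2 of 5 tested neutrophil genes, 2 of 3 B cell genes, 1 of 2 erythroid genes, 1 of 2 mast cell genes and 0 of 2 dendritic cell genes, where 10.5% of all genes passed. Among the neutrophil genes S100a8 fell (-0.98), and S100a9, not above background on any array labelled ATF3-/- HDL, was at least 1.10-fold lower. S100a9 lost the call without WT HDL 1 (adjusted p = 0.0942), in the chip fit (0.108) and without background correction (0.0798). Csf3r, another neutrophil gene, did not pass (0.53) but was called higher in the chip fit (0.89, adjusted p = 0.00334). Summed signals of the neutrophil markers overlapped, at 871 to 987 in the group labelled ATF3-/- HDL and 693 to 918 in the group labelled WT HDL. Among the B cell genes Cd22 (0.93) and Cd79b (0.59) rose, and Cd79b lost the call without ATF3-/- HDL 1 or WT HDL 1 or 2, in the chip fit (adjusted p = 0.0631) and with median scaling. The erythroid call was Epor, not above background on any array labelled WT HDL and at least 1.14-fold higher in ATF3-/-, which lost the call in the chip fit (adjusted p = 0.055), with median scaling (0.0628) and where the HDL groups were fitted alone (0.0539). The mast cell receptor Kit was not above background on any array labelled ATF3-/- HDL and was detected on all 3 labelled WT HDL, at least 2.75-fold lower in ATF3-/- (adjusted p = 1.07e-08), while Cpa3, Fcer1a and Mcpt4 were detected in neither. The other tested mast cell gene, Hdc, did not pass (0.31). Of the lists for other cell types, that of fibroblasts and stroma had the most calls and is described with the genes that rose.

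Under HDL, 967 of 9213 genes (10.5%) passed between the genotype labels. Of these, 470 (5.1%) were higher and 497 (5.39%) were lower in ATF3-/-, and 132 and 143 of them differed by more than 2-fold. All counts of rises and falls in gene lists under HDL are to be read against these shares. All 3 arrays of one label lay apart from all 3 of the other for 2631 genes (28.6%), 1373 above (14.9%) and 1258 below (13.7%). The largest rises were in genes of the interferon response, with Irf7 first at 3.35, and in the surface receptors Siglec1, Cd86 and Pilra. The largest falls were in Erdr1, Pisd-ps3, Col18a1, Gdf3 and Cav1. The count was 699 to 872 when 1 array was left out, 645 in the chip fit, of which 594 were among the 967, and 402 with median scaling in place of quantile normalisation. Median scaling also moved the median of all genes to -0.15, against 0.01 with quantile normalisation, and turned the split to 113 higher and 289 lower. Among genes named here, the calls that the chip fit ended included those of Batf, Cd69, Cd74, Cd79b, Epor, Fpr2 and Jun. They also included those of Marco, S100a9, Scd1, Scd2, Smyd2, Socs3 and Srxn1. The calls ended by median scaling included those of Arg2, Batf, C1qa, Cd40, Cd69, Cd74, Cd79b, Ebi3, Epor, Fcgr1, Flvcr1, Fpr2 and H2-M3. They also included those of Ints7, Jun, Lpl, Msr1, Mvd, Nupr1, Psmb9, Smyd2, Socs3, Tap1, Tapbp and Tnfaip3.

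**Figure D1:**
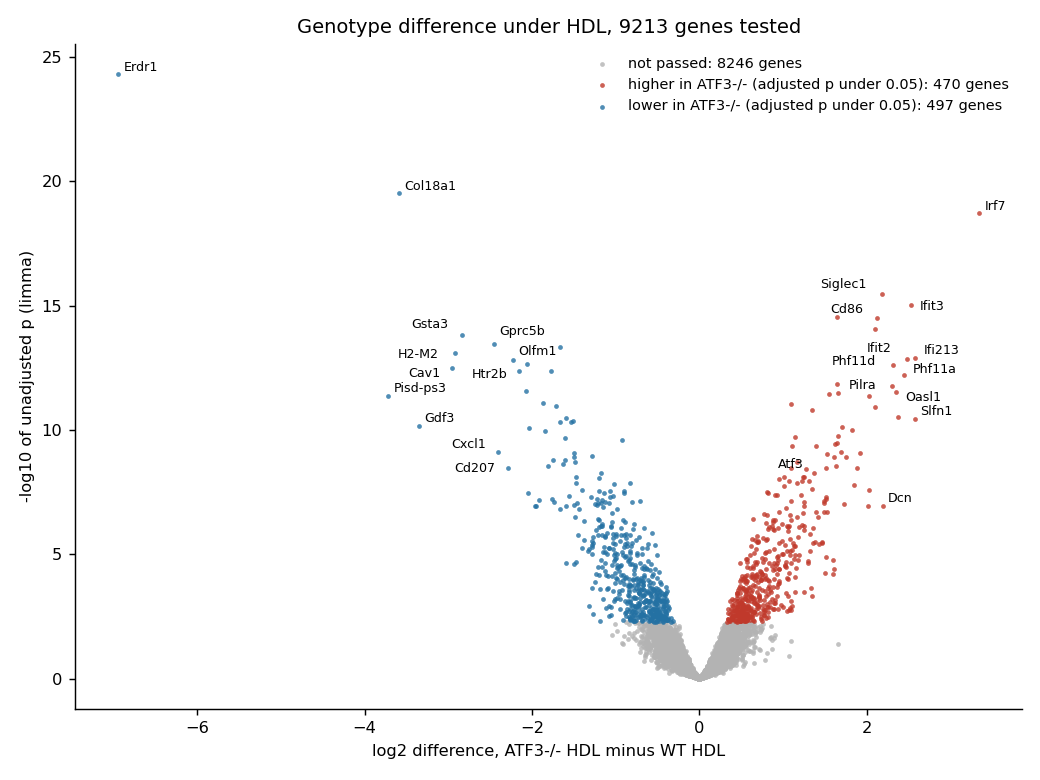
Log2 difference in signal between arrays labelled ATF3-/- HDL and WT HDL (horizontal) against -log10 of the unadjusted limma p (vertical) for 9213 genes, with genes that passed in red (470 higher in ATF3-/-) and blue (497 lower). Irf7 stands apart on the right at 3.35, and Erdr1, which the ATF3-/- arrays did not detect, lies farthest to the left.

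Interferon-stimulated genes, which cells make in answer to interferon, were the list with the most calls in one direction. Of 37 tested, 27 rose in the cells labelled ATF3-/-, 0 fell and 10 did not pass, and the median of the list was 0.90 against 0.01 over all genes. Irf7, the transcription factor that amplifies interferon production, had signals of 10.89, 10.81 and 10.70 in the arrays labelled ATF3-/- HDL, against 7.33, 7.62 and 7.40 in those labelled WT HDL. The groups lay far apart, with means of 10.80 ± 0.10 in ATF3-/- and 7.45 ± 0.15 in WT (SD, n = 3 each) and a log2 difference of 3.35 ± 0.16, adjusted p = 6.06e-16. Ifit3, an antiviral protein that binds viral RNA complexes, had signals of 12.30, 11.66 and 11.93 in the arrays labelled ATF3-/- HDL, against 9.50, 9.21 and 9.60 in those labelled WT HDL. These too did not overlap (2.53 ± 0.16, adjusted p = 1.75e-12). Whether the probe also reads Ifit3b, a near-identical copy of the gene, was not tested.

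Ifit2, a relative of Ifit3, had signals of 10.55, 10.44 and 10.48 in the arrays labelled ATF3-/- HDL, against 8.32, 7.59 and 8.13 in those labelled WT HDL, a difference of 2.48 ± 0.19, adjusted p = 9.6e-11. For Oasl1, an oligoadenylate synthetase-like protein that limits Irf7 translation in mice, they were 8.75, 8.21 and 8.21 in the arrays labelled ATF3-/- HDL, against 6.02, 5.88 and 6.20 in those labelled WT HDL. Its difference was 2.36 ± 0.21, adjusted p = 1.09e-09, with no overlap. Ifi213, an interferon-inducible member of the DNA-sensing Ifi200 family, rose by 2.58, and Phf11a and Phf11d, which encode PHD finger proteins, by 2.44 and 2.32. Slfn1, a Schlafen gene that restrains growth of immune cells, was not above background on any array labelled WT HDL and was at least 4.14-fold higher in ATF3-/- (adjusted p = 9.06e-09). Members that did not pass included Ifi205 (-0.21), Ifih1 (-0.12), Irgm1 (0.10) and Mx1 (0.66). With median scaling 14 of the 37 were called and the median relative to all genes was 0.84, against 0.89 in the main setting. In the chip fit 24 were called.

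**Figure D2:**
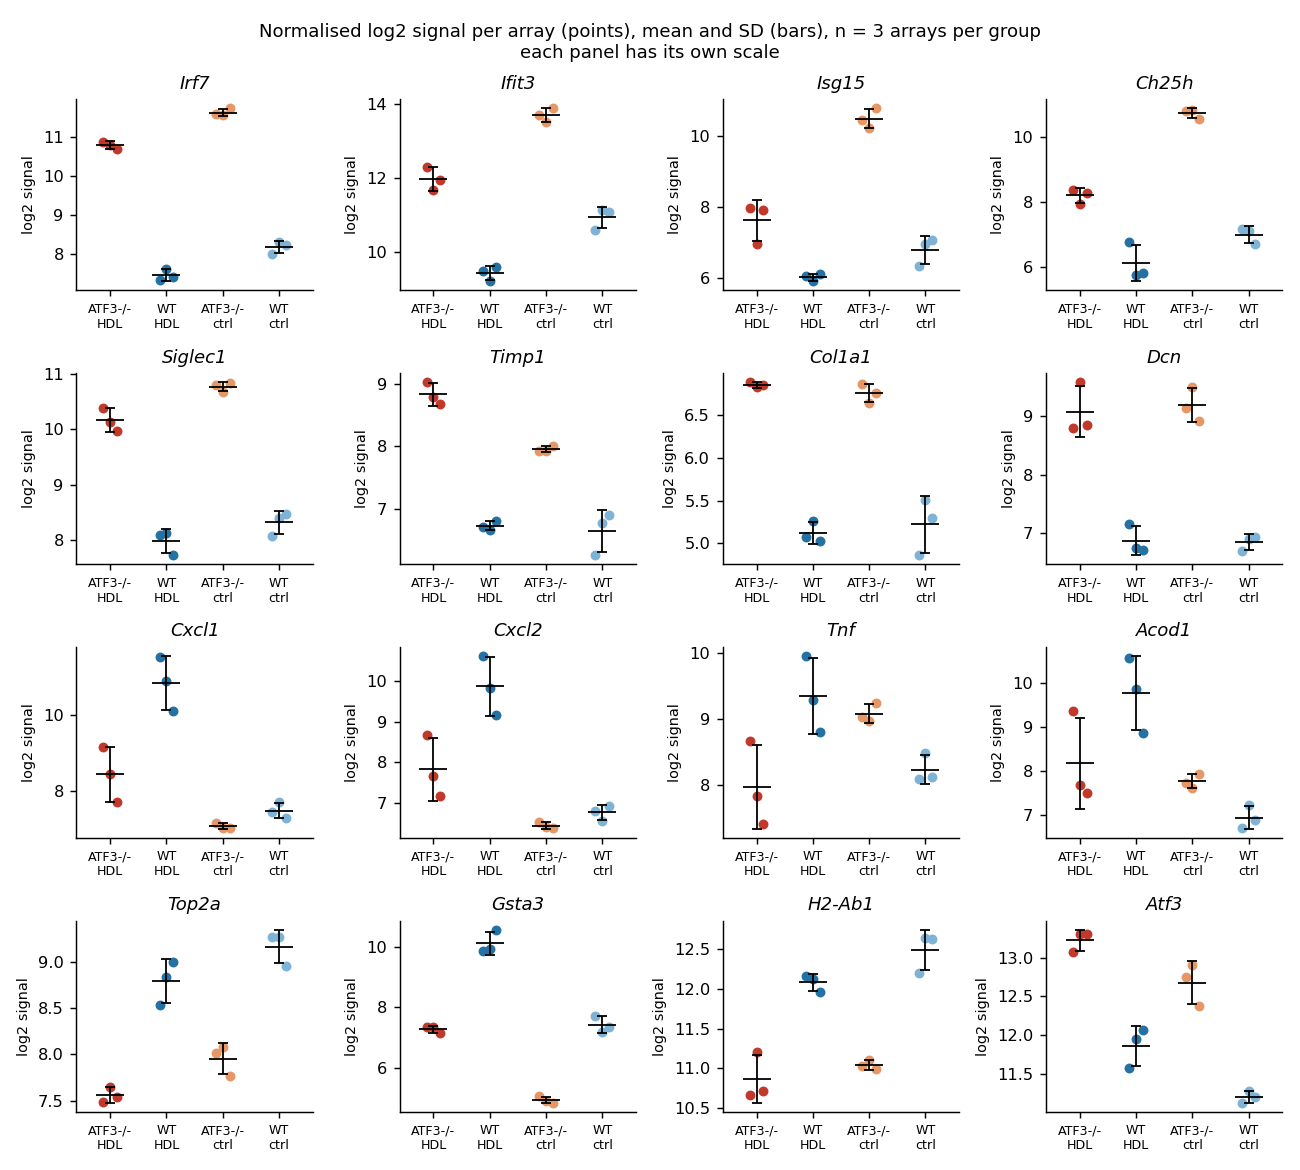
Normalised log2 signal (vertical, each panel on its own scale) of 16 genes on each array labelled ATF3-/- HDL, WT HDL, ATF3-/- control and WT control, with points for arrays and bars for the mean and SD of 3 arrays. Irf7 and Ifit3 lie higher in ATF3-/- with and without HDL, whereas Cxcl1 lies lower in ATF3-/- with HDL and the genotype difference in control cells did not pass.

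Promoters of 3 genes are shown because they hold the 2 kinds of element named above: Ifit3 and Isg15 hold interferon-type elements, and Ch25h holds a full cAMP response element. They were chosen after their values were seen. Each window of 300 bases spans the start of the gene, most of it upstream, from RefSeq on GRCm38.p6, read 5′ to 3′ on the strand of the gene. Capitals mark matches, on either strand, to an interferon-stimulated response element of the form GAAANNGAAA, to the cAMP response element TGACGTCA or to the AP-1 site TGANTCA. The Ifit3 window is chr19:34583279-34583578 on the plus strand and holds 2 interferon-type matches and 1 AP-1 match. The Isg15 window is chr4:156200769-156201068 on the minus strand and holds 3 interferon-type matches that overlap each other. The Ch25h window is chr19:34475099-34475398 on the minus strand and holds 1 cAMP response element.
Ifit3: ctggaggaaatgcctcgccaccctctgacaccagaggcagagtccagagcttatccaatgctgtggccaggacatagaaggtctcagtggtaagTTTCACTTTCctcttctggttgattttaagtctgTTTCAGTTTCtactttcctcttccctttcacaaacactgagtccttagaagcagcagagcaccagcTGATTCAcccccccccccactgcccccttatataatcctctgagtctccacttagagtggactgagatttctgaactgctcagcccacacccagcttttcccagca
Isg15: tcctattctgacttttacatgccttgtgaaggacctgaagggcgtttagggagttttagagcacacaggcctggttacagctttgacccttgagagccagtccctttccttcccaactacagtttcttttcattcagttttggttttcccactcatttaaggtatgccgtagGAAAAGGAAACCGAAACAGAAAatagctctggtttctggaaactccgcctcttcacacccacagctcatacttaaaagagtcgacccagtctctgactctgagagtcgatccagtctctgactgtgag
Ch25h: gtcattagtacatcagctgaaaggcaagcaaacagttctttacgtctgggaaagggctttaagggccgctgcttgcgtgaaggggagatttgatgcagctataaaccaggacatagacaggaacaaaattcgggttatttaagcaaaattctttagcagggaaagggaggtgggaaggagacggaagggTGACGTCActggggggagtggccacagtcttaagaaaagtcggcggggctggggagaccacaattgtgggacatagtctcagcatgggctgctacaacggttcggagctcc

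Windows of 300 bases were at hand for 371 of the 470 genes called higher under HDL, 403 of the 497 called lower and 7545 of all 9213 tested. The interferon-type element was present in 12.1% of the windows of genes called higher, in 3.47% of those called lower and in 3.99% of all windows of tested genes, as in 3.99% of all 27025 genes with a window. Of the 27 tested interferon-stimulated genes with a window, 17 held it (63%), 0 held the cAMP response element and 7 the AP-1 site (25.9%). The cAMP response element was present in 3.5% of the windows of genes called higher and 3.23% of those called lower, against 3.72% of all tested. Over all 27025 genes with a window its share was 2.03%. The AP-1 site was present in 8.36% and 8.44%, against 6.28% of all tested and 8.97% of all genes with a window. As spelled here, neither the cAMP response element nor the AP-1 site contains the other, though matches may overlap at their ends. A match is a run of letters and not a measured site, and overlap of windows between neighbouring genes was not tested.

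Calls in the list of MHC class I presentation and immunoproteasome genes, whose products cut peptides and load them for cytotoxic T cells, were rises. Of 16 tested, 9 were called higher in ATF3-/-, 0 were called lower and 7 did not pass, with a median of 0.63. H2-M2, a class I heavy chain outside this list, was among the 12 largest falls and is described with them. H2-M3, a non-classical class I heavy chain, had signals of 10.55, 10.44 and 10.59 in the arrays labelled ATF3-/- HDL, against 9.51, 9.71 and 9.49 in those labelled WT HDL, without overlap (0.95 ± 0.20, adjusted p = 0.00103). Tap1, a subunit of the peptide transporter, rose by 0.90, and Psmb9, an immunoproteasome subunit, by 0.80. Tapbp, which couples the transporter to class I molecules, was called at 1.0 ± 0.28, adjusted p = 0.0177, and lost the call without ATF3-/- HDL 3 or WT HDL 1 or 3 (adjusted p from 0.0615 to 0.162). The class I genes H2-D1 (-0.02), H2-K1 (0.64) and B2m (0.25) did not pass. The calls fell to 5 in the chip fit, to 5 without WT HDL 1 and to 0 with median scaling, where the median relative to all genes was 0.61 against 0.62.

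Calls among MHC class II genes, which present peptides to helper T cells, were falls. Of 10 tested, 3 were called lower, 0 higher and 7 did not pass, with a median of -0.48. H2-Ab1, a class II beta chain, had signals of 10.67, 11.21 and 10.72 in the arrays labelled ATF3-/- HDL, against 12.16, 12.13 and 11.96 in those labelled WT HDL. Every array labelled ATF3-/- was below every one labelled WT (-1.22 ± 0.17, adjusted p = 7.51e-06). H2-Eb1, another beta chain, fell by 0.88 on the log2 scale (adjusted p = 7.07e-05). Cd74, the invariant chain, was called at -1.01 ± 0.26, adjusted p = 0.0101, but not without ATF3-/- HDL 1 (adjusted p = 0.0697) nor in the chip fit. Without ATF3-/- HDL 2, 5 members were called lower.

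Surface receptors and genes of alternative activation also differed. Siglec1, a sialic acid receptor of macrophages that interferon induces, had signals of 10.39, 10.13 and 9.97 in the arrays labelled ATF3-/- HDL, against 8.09, 8.12 and 7.72 in those labelled WT HDL. Its groups lay apart by 2.18 ± 0.13, adjusted p = 7.78e-13. Cd86, a costimulatory ligand for T cells, had signals of 11.31, 11.31 and 10.93 in the arrays labelled ATF3-/- HDL, against 9.22, 9.13 and 8.81 in those labelled WT HDL, also without overlap (2.13 ± 0.14, adjusted p = 4.19e-12). Pilra, an inhibitory receptor, rose by 2.30. Of 21 Fc, complement and scavenger receptor genes, 5 rose and 1 fell. Fcgr4, Fcgr1 and Fcgr2b, receptors for immunoglobulin G, rose by 1.24, 1.18 and 1.16, and C1qa, a chain of complement C1q, by 1.33. The fall was in the scavenger receptor Marco (-1.11 ± 0.31, adjusted p = 0.0184), whose groups overlapped, and it was not called in the chip fit. Of 16 genes of alternative activation and resolution, 5 rose and 1, Tgfbi, fell. Mgl2 and Clec10a, lectins that bind galactose-type sugars, rose by 1.85 and 1.59, and Mrc1, the mannose receptor, by 1.10. With median scaling, 2 of the Fc list and 3 of the alternative activation list were called higher.

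Of 7 tested markers of fibroblasts and stroma, 4 rose and 0 fell, with a median of 1.52. Dcn, the matrix proteoglycan decorin, had signals of 8.80, 9.57 and 8.84 in the arrays labelled ATF3-/- HDL, against 7.16, 6.76 and 6.71 in those labelled WT HDL, without overlap (2.19 ± 0.31, adjusted p = 7.8e-06). Col1a1, a chain of type I collagen, had 6.89, 6.83 and 6.85 in the arrays labelled ATF3-/- HDL, against 5.08, 5.27 and 5.02 in those labelled WT HDL. Its 3 ATF3-/- arrays were above all WT arrays (1.73 ± 0.25, adjusted p = 6.89e-06), and 2 of the 3 WT arrays detected it. Acta2, smooth muscle actin, and Sparc, a matrix-binding protein, rose by 1.64 and 1.52. Pdgfrb (0.10), Cdh11 (0.18) and Col1a2 (0.53) did not pass. The summed signal of the 13 markers on the array ranged from 2244 to 2656 in the arrays labelled ATF3-/- HDL and from 801 to 963 in those labelled WT HDL. Cdh11, Col3a1, Fbln1, Lum, Pdgfra, Pdgfrb, Tagln and Thy1 were detected in neither group. The 4 calls were also made in the chip fit and with median scaling. In bulk RNA, more cells of a type and more RNA of these genes per cell cannot be told apart.

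Genes of matrix breakdown went both ways: of 15 tested, 4 rose, 5 fell and 6 did not pass. Timp1, an inhibitor of matrix metalloproteinases that fibroblasts also make, had signals of 9.03, 8.79 and 8.68 in the arrays labelled ATF3-/- HDL, against 6.72, 6.66 and 6.80 in those labelled WT HDL, with all ATF3-/- arrays higher (2.10 ± 0.15, adjusted p = 1.04e-11). Timp3, a matrix-bound inhibitor of the same family, rose by 1.62. Mmp12, the elastase of macrophages, had signals of 8.22, 8.65 and 8.53 in the arrays labelled ATF3-/- HDL, against 10.90, 10.30 and 10.08 in those labelled WT HDL and lay lower in ATF3-/- without overlap (-1.96 ± 0.28, adjusted p = 7.8e-06). Ctsk, a collagen-cutting cathepsin, fell by 1.77 on the log2 scale (adjusted p = 1.95e-10). The fibroblast marker sums given above differed between the same arrays, and their part in these results was not tested. The number of falls was 3 without ATF3-/- HDL 1 or 3 or WT HDL 2 or 3, in the chip fit and with median scaling.

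Inflammatory genes were lower in ATF3-/- for some members and higher for others. Cxcl1, a chemokine that draws neutrophils, had signals of 9.14, 8.44 and 7.70 in the arrays labelled ATF3-/- HDL, against 11.52, 10.88 and 10.11 in those labelled WT HDL. All arrays labelled ATF3-/- were lower (-2.41 ± 0.27, adjusted p = 1.27e-07), although the signals within each group spread over more than 1 log2 unit. Cxcl2, a close relative, had signals of 8.66, 7.65 and 7.15 in the arrays labelled ATF3-/- HDL, against 10.62, 9.82 and 9.17 in those labelled WT HDL. The groups did not overlap here either (-2.05 ± 0.28, adjusted p = 3.25e-06). Tnf, the central inflammatory cytokine, had signals of 8.66, 7.84 and 7.41 in the arrays labelled ATF3-/- HDL, against 9.96, 9.29 and 8.81 in those labelled WT HDL and was lower by the same measure (-1.38 ± 0.24, adjusted p = 0.000108); its other probe gave -1.36. Acod1, which makes itaconate in activated macrophages, had signals of 9.36, 7.68 and 7.49 in the arrays labelled ATF3-/- HDL, against 10.56, 9.88 and 8.88 in those labelled WT HDL. Here the highest ATF3-/- array exceeded the lowest WT array (-1.60 ± 0.32, adjusted p = 0.000648), and the call was lost where the HDL groups were fitted alone (adjusted p = 0.0831). For all 4 of these genes, array 1 was the highest and array 3 the lowest within either HDL group.

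Of 18 chemokines, 5 rose, 3 fell and 10 did not pass. The monocyte chemokine Ccl7 had signals of 7.09, 6.74 and 5.90 in the arrays labelled ATF3-/- HDL, against 5.33, 5.42 and 5.09 in those labelled WT HDL. The groups did not overlap, and Ccl7 rose by 1.29 (adjusted p = 0.000533). Ccl8, Ccl12, Ccl6 and Cxcl9 were the other rises, chosen for naming after their values were seen. Ccl8 and Cxcl9 were not above background on any array labelled WT HDL and were at least 1.46-fold and 1.22-fold higher in ATF3-/-. Cxcl14 was not above background on any array labelled ATF3-/- HDL and was at least 1.74-fold lower there (adjusted p = 9.74e-07). Cxcl10 (0.40), an interferon-induced chemokine, Ccl5 (0.54) and Ccl2 (0.44) did not pass. The rises numbered 3 without ATF3-/- HDL 1 or WT HDL 3, in the chip fit and with median scaling.

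Among 16 tested cytokines there were 1 rise and 1 fall, a share near the 10.5% over all genes. Ebi3, a subunit of interleukin-27 and interleukin-35, was the rise (0.82 ± 0.13, adjusted p = 4.56e-05), lost with median scaling, and Tnf was the fall. Il1b (-0.33) and Il10 (-0.64) did not pass, and without ATF3-/- HDL 1 Il10 did, at -1.19. Il6 (-0.32) was detected on 0 arrays labelled ATF3-/- HDL and 1 labelled WT HDL. Of 25 feedback and target genes of NF-kB, the main inflammatory transcription factor, 2 rose, 6 fell and 17 did not pass. Tnfaip3, the A20 protein that ends NF-kB signalling, was called at -0.84 ± 0.20, adjusted p = 0.00513, but not without ATF3-/- HDL 3 (log2 difference -0.62) or WT HDL 1 (-0.53). Socs3, a feedback inhibitor of cytokine receptors, was called at -1.27 ± 0.38, adjusted p = 0.0301 with overlapping groups, and lost without ATF3-/- HDL 2 or 3 or WT HDL 1 or 2 (adjusted p from 0.0821 to 0.385). The falls of this list numbered 0 without ATF3-/- HDL 3 or WT HDL 1, 3 without ATF3-/- HDL 2 or WT HDL 2, 2 in the chip fit and 0 with median scaling.

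Among 8 tested genes described as repressed by ATF3 in macrophages, 1 rose under HDL, 2 fell and 5 did not pass, where 5.1% of all genes rose and 5.39% fell. The rise was Ch25h, the enzyme that makes 25-hydroxycholesterol, an inhibitor of sterol synthesis. Its signals were 8.37, 7.94 and 8.29 in the arrays labelled ATF3-/- HDL, against 6.75, 5.75 and 5.81 in those labelled WT HDL. The groups did not overlap (2.09 ± 0.19, adjusted p = 3.26e-09), and its promoter is the one with the cAMP response element shown above. The falls were Cxcl1 and Tnf. Nos2, which makes nitric oxide, was detected on 0 arrays of either group.

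Genes of sterol synthesis, which rise when cells lack cholesterol, were lower in part. Of 18 tested, 5 fell, 0 rose and 13 did not pass, with a median of -0.40. Lss, lanosterol synthase, had signals of 9.72, 9.70 and 9.73 in the arrays labelled ATF3-/- HDL, against 10.45, 10.47 and 10.66 in those labelled WT HDL. The values were tight within each group and did not overlap (-0.81 ± 0.11, adjusted p = 6.21e-06). Sc5d and Mvd, enzymes late and early in the pathway, fell by 0.89 and 0.74 on the log2 scale (adjusted p = 0.000147 and 0.00335). HDL raised 15 of these 18 genes in either genotype, Lss by 2.70 in ATF3-/- (adjusted p = 1.32e-16) and by 3.14 in WT (adjusted p = 1.97e-18), in comparisons where 13.4% and 8.36% of all genes rose (23.2% and 15.3% passed). The falls between genotypes numbered 3 without ATF3-/- HDL 2 or WT HDL 2 and 2 with median scaling.

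Of 15 targets of LXR, the sterol-sensing nuclear receptor, 2 rose, 3 fell and 10 did not pass. Abcg1, which exports cholesterol to HDL, had signals of 5.21, 5.38 and 4.74 in the arrays labelled ATF3-/- HDL, against 6.16, 6.23 and 6.04 in those labelled WT HDL, lower in ATF3-/- without overlap (-1.03 ± 0.18, adjusted p = 0.000142), and 1 of the 3 arrays labelled ATF3-/- HDL detected it. In control cells the signals were 9.21, 9.02 and 9.00 in the arrays labelled ATF3-/- control, against 9.05, 9.43 and 9.09 in those labelled WT control, and the genotype difference did not pass (-0.12 ± 0.18, adjusted p = 0.786). The difference between these genotype differences did not pass (adjusted p = 0.0752). Scd1 and Scd2, desaturases of fatty acids, were the other falls (-1.0 and -0.71), and in the chip fit 1 of the 3 falls was called. Of 16 genes of lipid storage and fatty acids, 4 fell and 1, the scavenger receptor Msr1, rose. Elovl6, a fatty acid elongase, fell by 0.88 and Lpl, lipoprotein lipase, by 0.59 on the log2 scale (adjusted p = 0.000385 and 0.00109), and Lpl lost the call with median scaling and over the mean of its probes. The falls numbered 2 without ATF3-/- HDL 3 and 1 with median scaling.

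Among 19 targets of NRF2, the regulator of antioxidant genes, 4 fell, 0 rose and 15 did not pass. Gsta3, a glutathione transferase, had signals of 7.34, 7.35 and 7.14 in the arrays labelled ATF3-/- HDL, against 9.86, 9.93 and 10.55 in those labelled WT HDL. All arrays labelled ATF3-/- lay at least 2 log2 units below all labelled WT (-2.84 ± 0.20, adjusted p = 1.58e-11). Me1, malic enzyme, fell by 1.28 on the log2 scale (adjusted p = 0.000184), and Gstm1 by 0.51, Gstm1 being named after its value was seen. Srxn1, sulfiredoxin, was called at -0.82 ± 0.22, adjusted p = 0.0113, but not without ATF3-/- HDL 1 or WT HDL 3 (adjusted p 0.0657 and 0.0937) nor in the chip fit. Hmox1, haem oxygenase, had signals of 10.90, 9.10 and 11.26 in the arrays labelled ATF3-/- HDL, against 7.58, 10.20 and 10.28 in those labelled WT HDL. They overlapped widely, and the difference did not pass (1.07 ± 0.67, adjusted p = 0.391).

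Falls made up all calls among genes of the cell cycle. Of 26 tested, 14 fell, 0 rose and 12 did not pass, with a median of -0.69. Top2a, the topoisomerase of dividing cells, had signals of 7.48, 7.65 and 7.54 in the arrays labelled ATF3-/- HDL, against 8.53, 8.84 and 9.00 in those labelled WT HDL. The groups lay apart (-1.23 ± 0.26, adjusted p = 0.00156). Cdk1, the mitotic kinase, had signals of 7.63, 8.02 and 7.56 in the arrays labelled ATF3-/- HDL, against 8.84, 8.60 and 9.18 in those labelled WT HDL, also without overlap (-1.14 ± 0.21, adjusted p = 0.000194). Tk1, thymidine kinase, and Bub1b, a spindle checkpoint kinase, fell by 1.17 and 1.06 on the log2 scale. The replication genes Mcm2 (0.39), Mcm3 (0.00) and Mcm4 (-0.08) did not pass. The falls numbered 11 with median scaling and 12 in the chip fit.

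Of 25 factors of the ATF and related bZIP family, 4 rose, 1 fell and 20 did not pass. Ddit3, the stress factor CHOP, had signals of 9.28, 8.88 and 9.51 in the arrays labelled ATF3-/- HDL, against 7.27, 7.79 and 8.30 in those labelled WT HDL, higher in ATF3-/- without overlap (1.43 ± 0.25, adjusted p = 0.000145). Besides Atf3, Batf (1.07) and Jun (0.85), a subunit of AP-1, were called higher. Batf lost the call without ATF3-/- HDL 2 or 3 or WT HDL 1 or 3 (adjusted p from 0.0517 to 0.131), and Jun without ATF3-/- HDL 3 or WT HDL 3 (0.0531 and 0.0555). The rises numbered 2 without WT HDL 3, in the chip fit and with median scaling. Of 19 targets of ATF4, the effector of the integrated stress response, 2 rose and 3 fell. Psat1, an enzyme of serine synthesis, fell by 0.71 on the log2 scale (adjusted p = 0.0024), and Nupr1, a stress-induced nuclear protein, rose by 1.04. The falls of this list numbered 1 without ATF3-/- HDL 3. Slc7a11 (-0.11), Trib3 (0.17) and Chac1 (-0.36), further targets of ATF4 or NRF2, did not pass. Among 16 ER chaperones, 10 heat shock genes, 24 lysosomal genes, 20 genes of glycolysis and hypoxia and 26 pattern recognition genes, the calls numbered 1, 1, 3, 1 and 4, to be read against the 10.5% called over all genes.

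**Figure D3:**
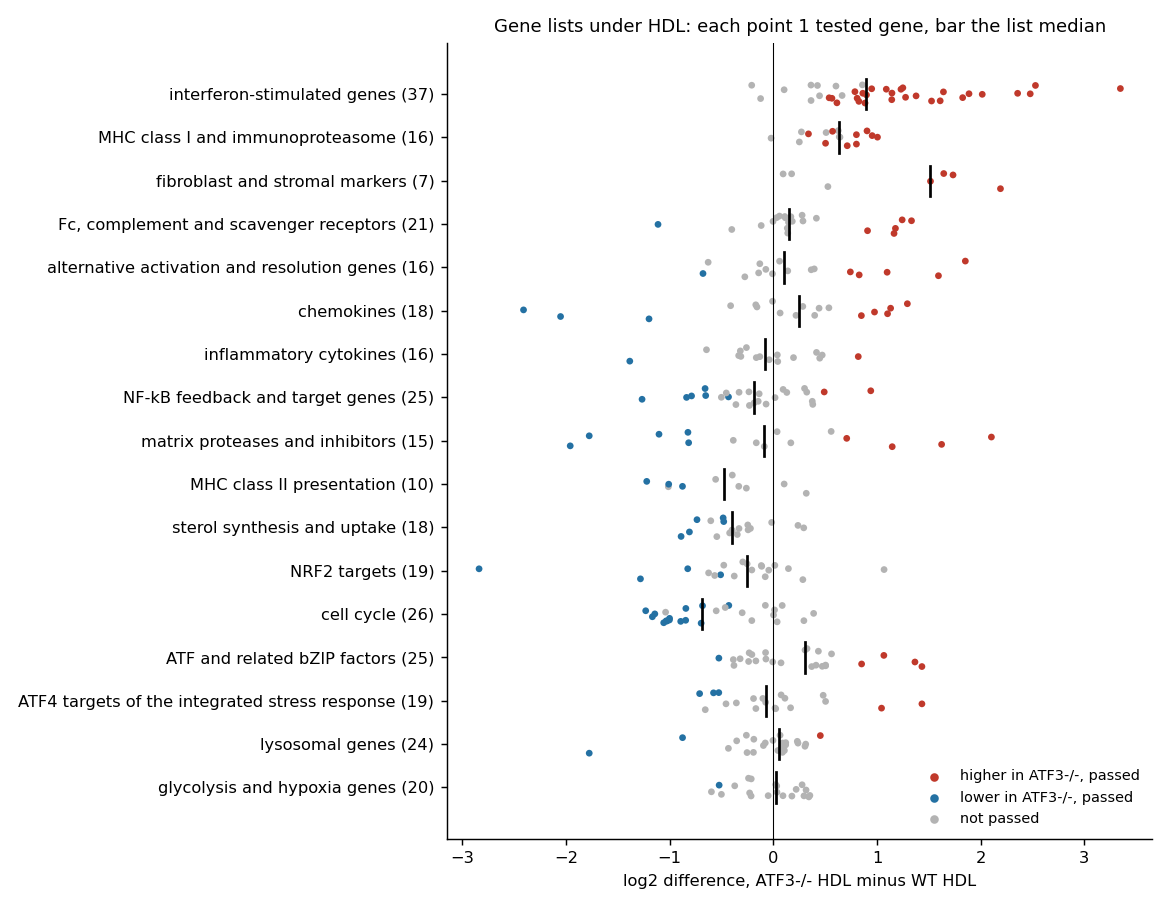
Log2 difference between arrays labelled ATF3-/- HDL and WT HDL (horizontal) for the tested members of 17 gene lists (rows, number tested in parentheses), with a point per gene, coloured where it passed, and a bar at the list median. Interferon-stimulated genes lie to the right with a median of 0.90 and cell cycle genes to the left with a median of -0.69.

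The largest falls were not led by any one pathway. Erdr1, a secreted growth regulator in the pseudoautosomal region of the mouse, had signals of 4.34, 4.46 and 4.32 in the arrays labelled ATF3-/- HDL, against 11.41, 11.22 and 11.32 in those labelled WT HDL. It was above background on 0 arrays labelled ATF3-/- HDL and on all 3 labelled WT HDL, and was at least 63.6-fold lower (adjusted p = 4.56e-21). Erdr1 is 1 of 7 tested transcripts that have been reported to differ between inbred mouse strains, and the other 6, among them Ide, Glo1 and Entpd4, did not pass under HDL. Over the mean of detected probes, 2 of the 7 were called lower. Under HDL, all arrays labelled ATF3-/- lay above all labelled WT for 3 of the 7 and below for 1, against 14.9% and 13.7% of all genes. In control cells 1 was called higher and 1 lower (of all genes, 6.46% and 6.77%). The falls numbered 3 under CpG, 1 under P3C, 2 under HDL with CpG and 1 under HDL with P3C, with 0 rises. Of all genes, 13.8%, 6.58%, 6.25% and 8.12% fell there. Col18a1, a basement membrane collagen, had signals of 7.68, 7.27 and 7.65 in the arrays labelled ATF3-/- HDL, against 11.35, 11.16 and 10.85 in those labelled WT HDL, lower without overlap (-3.59 ± 0.16, adjusted p = 1.4e-16). Pisd-ps3, a pseudogene of a phospholipid enzyme, Gdf3, a growth factor of the TGF-beta family, and Cav1, the coat protein of caveolae, also fell (-3.72, -3.35 and -2.95). H2-M2, a class I heavy chain, was not above background on any array labelled ATF3-/- HDL and was at least 5.65-fold lower (adjusted p = 5.95e-11). Gprc5b, an orphan receptor, Cd207, the Langerhans cell lectin langerin, Olfm1, a secreted olfactomedin protein, and Htr2b, a serotonin receptor, fell as well (-2.45, -2.29, -2.23 and -2.15). Among sex-linked transcripts, Uty (0.01) did not pass, nor did Xist (-0.47) by its brightest probe, while its next brightest probe gave -0.69 (adjusted p = 0.0465), and Eif2s3y and Kdm5d were detected in neither group.

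The same comparison in control cells used other arrays and passed for 1219 of 9213 genes (13.2%), 595 (6.46%) higher and 624 (6.77%) lower in ATF3-/-. Of the genes called under HDL, 605 were called in the same direction in control cells, 62.6% of the HDL calls and 49.6% of the control calls, and 8 were called in opposite directions. Irf7 differed by 3.46 in control cells, and by 3.58 and 3.44 within the 2 chips that held both control groups. Col18a1 (-3.60), Dcn (2.33), Siglec1 (2.45) and Top2a (-1.21) also passed there, and Erdr1 and Gsta3 were above background on 0 arrays labelled ATF3-/- control and on all 3 labelled WT control. All 37 interferon-stimulated genes rose in control cells, with a median of 2.0, as did 11 of 16 class I genes and 5 of 7 fibroblast markers, while 13 of 26 cell cycle genes and 5 of 10 class II genes fell.

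HDL lowered the interferon-stimulated genes in both genotypes: 36 of 37 fell with HDL in the cells labelled ATF3-/- (median -1.60) and 19 of 37 in those labelled WT (median -0.67), where 9.86% and 6.9% of all genes fell. Isg15, a ubiquitin-like antiviral protein, had signals of 7.97, 6.96 and 7.93 in the arrays labelled ATF3-/- HDL, against 6.04, 5.90 and 6.10 in those labelled WT HDL, an HDL difference of 1.61 ± 0.33, adjusted p = 0.000964. In control cells they were 10.47, 10.25 and 10.80 in the arrays labelled ATF3-/- control, against 6.33, 6.94 and 7.08 in those labelled WT control, where the difference was 3.73 ± 0.33, adjusted p = 8.65e-10. The genotype groups did not overlap in either condition.

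Whether the genotype difference itself depended on HDL was tested as the difference under HDL minus the difference in control cells. This passed for 117 of 9213 genes (1.27%), of which 27 (0.293%) were more positive and 90 (0.977%) more negative under HDL. The genotype difference was smaller in size under HDL than in control cells for 92 of the 117. Of the 90, 75 were called higher in ATF3-/- control cells and 23 were called lower in ATF3-/- under HDL. Of the 117, 8 were called in opposite directions in the 2 conditions. The count was 64 without ATF3-/- control 3 and 74 without ATF3-/- HDL 2, and 12 with median scaling, where 18 of the 24 genes of this test that are named here lost the call.

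**Figure D4:**
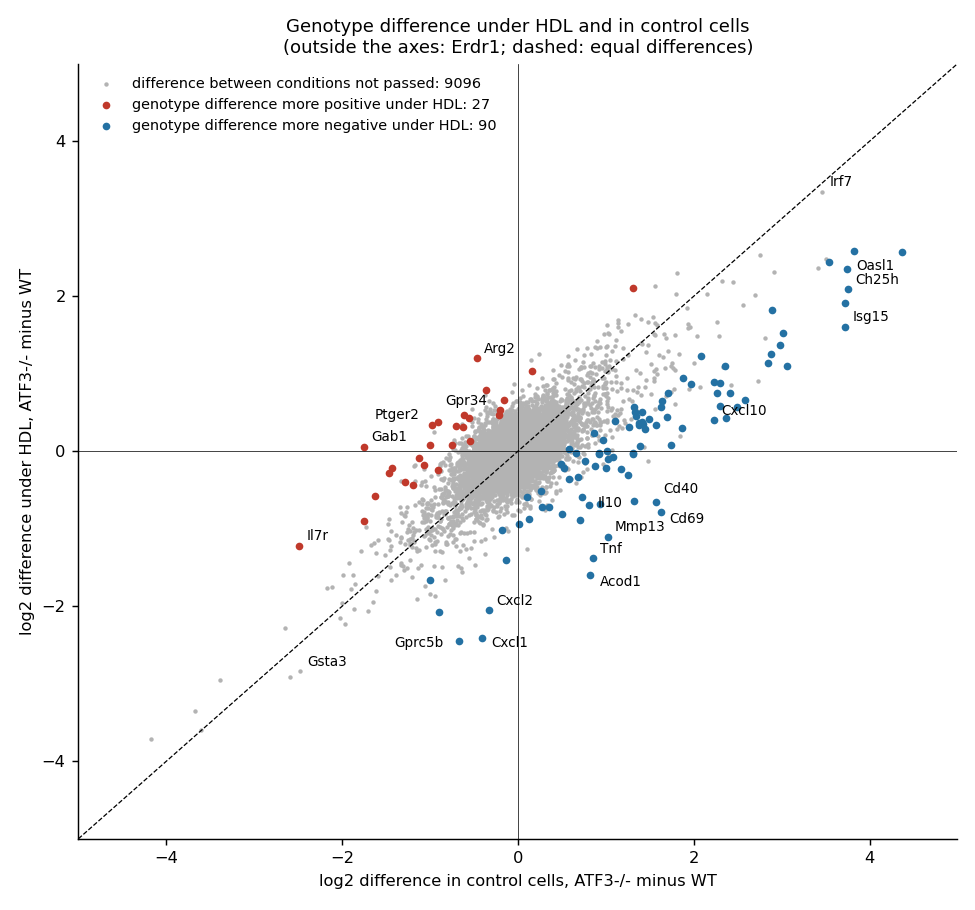
Log2 difference ATF3-/- minus WT under HDL (vertical) against the same difference in control cells (horizontal) for each gene tested, with the 117 genes whose differences were unequal by the test in red (27) or blue (90). Ch25h and Isg15 lie below the dashed line of equal differences on the right, and Tnf and Acod1 lie below 0 under HDL.

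Of the 37 interferon-stimulated genes, 14 were among the 90 (of all genes, 0.977%) and 23 did not pass, and the median of this difference over the list was -1.02. For Isg15 it was -2.12 ± 0.47, adjusted p = 0.0131, and for Oasl1 -1.39 ± 0.29, adjusted p = 0.00813. Irf7 (-0.11) and Ifit3 (-0.23) did not pass. Ch25h had signals of 10.80, 10.85 and 10.56 in the arrays labelled ATF3-/- control, against 7.17, 7.09 and 6.69 in those labelled WT control without HDL, and its genotype difference changed by -1.66 ± 0.28, adjusted p = 0.000655 under HDL. With median scaling the changes of Oasl1 and Ch25h did not pass (adjusted p = 0.35 and 0.347). The change of Isg15 was not followed under the alternative settings. Of the 70 genes among the 90 with a promoter window, 24.3% held the interferon-type element shown in Ifit3 and Isg15. The cAMP response element was held by 2.86% and the AP-1 site by 11.4%. Over all tested genes with a window, the 3 shares were 3.99%, 3.72% and 6.28%. The 90 include the 14 interferon-stimulated genes counted above, so the first share is not separate from that list.

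Tnf was lower in ATF3-/- with HDL and higher without it. Its control signals were 9.03, 8.97 and 9.25 in the arrays labelled ATF3-/- control, against 8.10, 8.48 and 8.12 in those labelled WT control, without overlap (0.85 ± 0.24, adjusted p = 0.0133). The change in the genotype difference was -2.23 ± 0.34, adjusted p = 0.000249, and was not called with median scaling (adjusted p = 0.069). HDL lowered Tnf by 1.11 on the log2 scale in the cells labelled ATF3-/- (adjusted p = 0.000668) and raised it by 1.12 in those labelled WT (adjusted p = 0.000936). Mmp13, a collagenase, also turned, at -1.10 under HDL and 1.02 in control cells (-2.12 ± 0.29, adjusted p = 6.84e-05), although its HDL groups overlapped and the HDL call was lost where the HDL groups were fitted alone. Cd40, the receptor for T cell help, was called at -0.66 under HDL and 1.57 in control cells (-2.23 ± 0.28, adjusted p = 2.63e-05), and Cd69, an early activation marker, at -0.79 and 1.62 (-2.41 ± 0.37, adjusted p = 0.000259). The HDL calls of these last genes, whose groups overlapped, were each lost without ATF3-/- HDL 2 or 3 or WT HDL 1 or 2, with adjusted p from 0.0855 to 0.415, and that of Cd69 also in the chip fit (adjusted p = 0.061).

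Cxcl1 without HDL had signals of 7.15, 7.01 and 7.02 in the arrays labelled ATF3-/- control, against 7.42, 7.69 and 7.29 in those labelled WT control, and its genotype difference there did not pass (-0.41 ± 0.27, adjusted p = 0.392). HDL raised Cxcl1 in either genotype, by 1.37 in the cells labelled ATF3-/- (adjusted p = 0.00026) and by 3.37 in those labelled WT (adjusted p = 1.06e-10), and the rises differed (-2.0 ± 0.38, adjusted p = 0.00337). The difference between the rises was not called with median scaling (adjusted p = 0.239) nor where the 4 groups were fitted alone (0.0693). For Acod1 the control signals were 7.74, 7.63 and 7.95 in the arrays labelled ATF3-/- control, against 6.71, 7.23 and 6.90 in those labelled WT control. The genotype difference changed by -2.42 ± 0.45, adjusted p = 0.00248, with no call in control cells, and that test was lost with median scaling (adjusted p = 0.069) and where the 4 groups were fitted alone (0.0946). Of the 8 tested genes described as repressed by ATF3, 5 were among the 90, and of 25 NF-kB genes 3 were, against 0.977% of all genes.

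Genes whose genotype difference was more positive under HDL were fewer. Gab1, an adaptor of growth factor receptors, did not pass under HDL (0.06) and was lower in ATF3-/- control cells (-1.76), and the change was 1.81 ± 0.20, adjusted p = 3.28e-06. Arg2, the mitochondrial arginase, had HDL signals of 7.84, 8.48 and 7.62 in the arrays labelled ATF3-/- HDL, against 6.81, 6.70 and 6.84 in those labelled WT HDL, higher in ATF3-/- without overlap (1.20 ± 0.23, adjusted p = 0.000351). In control cells it was above background on 0 arrays labelled ATF3-/- and on all 3 labelled WT, but the genotype difference there did not pass (-0.47, adjusted p = 0.202). Ptger2, a prostaglandin E receptor, was also above background on 0 arrays labelled ATF3-/- control, and did not pass under HDL (0.34).

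The genes called under HDL were followed in the other conditions, whose arrays are all distinct from those of the HDL groups. Genes passed between genotypes for 22.7% under CpG, 12.9% under P3C, 12.2% under HDL with CpG and 15% under HDL with P3C. Of the 470 genes higher under HDL, 229 were called higher under CpG (of all genes, 8.87%), 226 under P3C (6.32%), 248 under HDL with CpG (5.9%) and 263 under HDL with P3C (6.89%). Of the 497 lower under HDL, 287 were called lower under CpG (of all genes, 13.8%), 240 under P3C (6.58%), 249 under HDL with CpG (6.25%) and 290 under HDL with P3C (8.12%). Called in all 6 conditions were 149 genes higher and 161 lower in ATF3-/-. Called under HDL and in no other condition were 87 higher and 82 lower. A difference between conditions was tested for control cells alone.

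Irf7 stayed between 2.24 (P3C) and 3.46 (control), and Erdr1 was above background on 0 ATF3-/- arrays and all WT arrays of every condition. Siglec1 varied little, from 2.18 under HDL to 2.45 in control cells. Ifit3 was 2.76 in control cells, 2.53 under HDL, 1.42 under CpG, 1.04 under P3C, 1.82 under HDL with CpG and 1.18 under HDL with P3C. Cxcl1 passed under HDL and under CpG (-1.45), and did not pass under P3C (-0.73), HDL with CpG (-0.08) or HDL with P3C (-0.10).

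**Figure D5:**
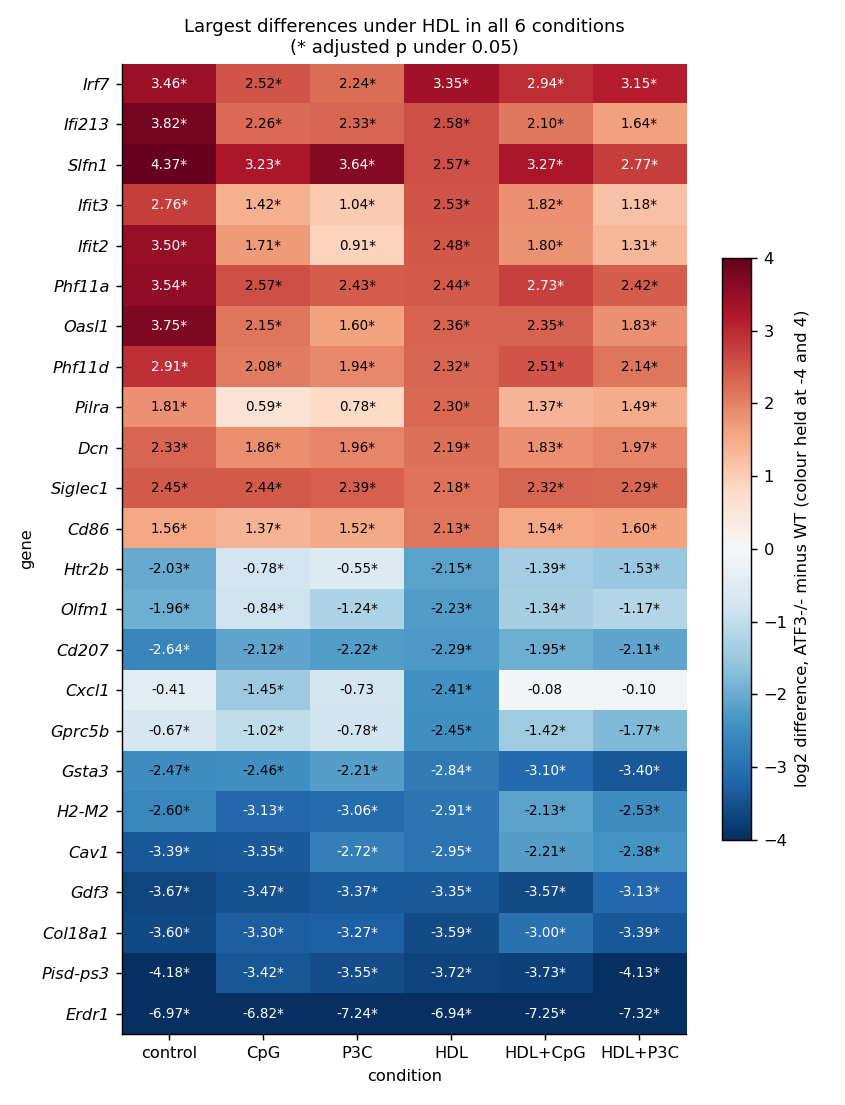
Log2 difference ATF3-/- minus WT of the 12 genes with the largest rises and the 12 with the largest falls under HDL (rows) in 6 conditions (columns), with red for higher and blue for lower in ATF3-/- and an asterisk where the gene passed. Rows such as Irf7 and Erdr1 keep their colour in all columns, and Cxcl1 passed under CpG and HDL.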

How the data were processed

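Per the file headers, the authors deposited for each of 45281 probes of each array an average signal intensity, not normalised between arrays, with a detection p-value computed against control probes. The submitters' processing notes name Partek, and further steps are not given in the sources used here. Of the 36 arrays, 6 carry the comparison. Probe symbols came from the platform annotation: 34885 probes had 1 symbol, 18 several and 10378 none.

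With limma 3.58.1 in R 4.3.3, intensities were background-corrected from the detection p-values (neqc, offset 16), quantile normalised and put on a log2 scale, so fold changes of dim genes are understated. The brightest of a gene's probes was used, and 9213 genes detected (p under 0.01) on at least 3 arrays were tested. One model held the means of 12 groups of 3 arrays (24 residual degrees of freedom), with contrasts ATF3-/- minus WT by condition, HDL minus control by genotype, and the difference of genotype differences. A gene not above background in a whole group got, where named as called, a lower bound on its fold. On simulated data for 9213 genes and the HDL comparison, 25% of changes of 0.5 log2 units and 87% of changes of 1 unit were recovered, with 5.88% of calls false. Figures were drawn in Python 3.11.15 with matplotlib 3.10.9.

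The comparison and gene lists were chosen with earlier results of these data known. Named genes were Atf3, the 12 largest rises and falls, the 4 tested members per list with the largest difference under HDL in either direction, called or not, called genes among 40 neighbours on each side of Atf3, the 5 largest each way for the difference of genotype differences, and 22 fixed genes of inflammation, sterol and stress responses. Of the fixed genes, Abca1 was detected on 0 arrays, and some others are not reported here. Alternatives were other normalisations, filters, probe rules, chip terms, array weights and leaving out each array.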

Additional observations from a re-analysis of the deposited data

Results flagged for a closer look

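The genotype difference under HDL differed from that in control cells for 117 genes, by limma's test of the difference itself. Among those named, it was more negative under HDL for Acod1 (-2.42), Cd69 (-2.41), Cd40 (-2.23), Tnf (-2.23), Mmp13 (-2.12), Cxcl1 (-2.0), Il10 (-1.96), Cxcl10 (-1.84), Slfn1 (-1.80), Gprc5b (-1.78), Cxcl2 (-1.72), Ch25h (-1.66), the formyl peptide receptor Fpr2 (-1.52), Oasl1 (-1.39), Ifi213 (-1.24), Phf11a (-1.10) and Lpl (-0.69). It was more positive for Gab1 (1.81), Arg2 (1.67), Ptger2 (1.31), the receptor Gpr34 (1.29), the interleukin-7 receptor Il7r (1.27), the inflammasome protein Mefv (0.85) and Timp1 (0.79). Slfn1 was not above background on any WT array of either condition, nor were Arg2 and Ptger2 on the arrays labelled ATF3-/- control, so these values rest in part on background signal.

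Leaving out 1 array ended the call for Cxcl2 (5 of the 12 arrays of these groups, adjusted p up to 0.0828), Fpr2 (5, up to 0.0867), Ifi213 (4, up to 0.0794), Il7r (3, up to 0.0898), Phf11a (8, up to 0.181), Lpl (10, up to 0.141), Mefv (11, up to 0.138) and Timp1 (10, up to 0.198). With each chip at its own level the call ended for Cxcl2 (adjusted p = 0.317), Ifi213 (0.0729), Lpl (0.212), Mefv (0.33), Phf11a (0.196) and Timp1 (0.245). Over the mean of detected probes it ended for Il7r (change 0.28, adjusted p = 0.644), Timp1 (0.59, 0.158) and Lpl (-0.85, 0.0901).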

How the results depend on the processing

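The HDL comparison, with 967 genes called, gave 402 with median scaling and 699 to 872 without 1 array. It gave 645 with each chip at its own level, 1191 with arrays weighted by quality and 875 where its groups were fitted alone. Median scaling also gave 574 for control cells, 12 for the difference of genotype differences, 907 for CpG, 611 for P3C and 481 for HDL with CpG. Weighting gave 2958 for control cells and 312 for the difference of genotype differences, which ranged from 64 to 117 without 1 array. CpG gave 329 where its groups were fitted alone, and P3C gave 747 with each chip at its own level. Causes were not tested. Of 102 named genes called under HDL, 60 kept the call under every alternative, 36 lost it with median scaling, 18 with chip levels and 19 on leaving out 1 array. No direction of a called gene turned. No paired analysis was possible because the labels give no replicate numbers, and those used here follow deposit order. Chip and genotype could not be separated within a chip under HDL, and 3 arrays per group limit precision.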
